A study of Mus musculus with 12 samples.

Results

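The genes described here are 10 leukocyte integrin subunits, Itga1, Itga2, Itga4, Itga5, Itga6, Itgal, Itgb1, Itgb2, Itgb3 and Itgb7, out of 21337 genes named on the array. Members were found by gene name, and the brightest probe of each, by its mean over the 12 arrays, was read. Of the 10, 9 were well above background on at least 3 arrays and entered the test, as did 13673 named genes in all. Itga2, the collagen-binding α2 subunit, did not, since its probe was well above background on 0 of 12 arrays.

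Integrins are adhesion receptors built from an α and a β chain, and the pairing of the chains decides which ligand is bound. In T cells, αLβ2 (LFA-1) binds ICAMs on other cells, α4β1 and α4β7 bind VCAM-1 and MAdCAM-1 on vessel walls, and chains that pair with β1 bind matrix proteins such as collagen, laminin and fibronectin. Intracellular proteins such as talin and kindlin switch the receptors to the state that binds ligand.

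RNA came from regulatory T cells (Treg), CD4 T cells that restrain immune responses, sorted from subcutaneous MC38 tumours, a mouse colon carcinoma line, and from spleen. The 4 groups had 3 arrays each. IL10+ and IL10- tumour Treg came from VERT-X C57BL/6 mice, in which EGFP reports Il10, and total tumour Treg came from FoxP3-EGFP C57BL/6 mice, in which EGFP reports Foxp3. Spleen Treg came from FoxP3-EGFP C57BL/6 mice without tumours. Tumours were taken at 2 weeks and pooled, and the age and sex of the mice are not given in the sources used here. All cells passed a gate on CD45, low CD11b, CD3 and CD4. Treg were then taken by EGFP in FoxP3-EGFP mice, and by CD25 and CD120b in VERT-X mice, so that mouse line and gate change together between these groups and cannot be told apart. The labels name 3 experiments per population and do not tie a replicate number to an animal, so p-values measure the spread between these samples.

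Levels are log2 of the processed signal minus the 75th percentile of the array. They are comparable between arrays for 1 probe and not between probes. Between 42.1% and 65.2% of probes were well above background on an array. Il10, the gene of the reporter, had levels of 3.62, 5.38 and 4.78 in IL10+ Treg and of -0.50, 0.39 and -0.0054 in IL10- Treg, groups that do not overlap, but limma's adjusted p was 0.350. The Foxp3 probe averaged 3.97 in IL10- and 3.65 in IL10+ Treg, and it was not well above background in total tumour or spleen Treg of FoxP3-EGFP mice, where it averaged -6.46 and -6.11. The library labelled spleen replicate 2 stood apart. Its level of Ctla4, a checkpoint receptor of Treg, was -0.94, against 3.06 and 3.25 in the other spleen libraries, and Il2ra (CD25) was at -3.95 against 0.67 and 1.23. Calls and differences of members and named pathway genes against spleen are therefore also given without it. Fewer cells of a type and less RNA per cell cannot be told apart in these sorted pools.

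Promoter sequences are shown for Itga1, Itga4 and Itga5, members that differed between total tumour and spleen Treg and have an entry in the RefSeq table (GRCm38.p6), which holds 6 of the 10 members. Itga6, Itgal, Itgb2 and Itgb3 are named only. Each sequence has 300 bases around the gene's start, on the gene's strand, written 5′ to 3′. Capitals mark matches on either strand to TGTGGT (Runx core), GGGCGG (GC box) or CCGGAA (Ets core). No matches overlap. The intervals are chr13:115101915-115102214 (minus strand), chr2:79255176-79255475 (plus strand) and chr15:103366742-103367041 (minus strand).
Itga1: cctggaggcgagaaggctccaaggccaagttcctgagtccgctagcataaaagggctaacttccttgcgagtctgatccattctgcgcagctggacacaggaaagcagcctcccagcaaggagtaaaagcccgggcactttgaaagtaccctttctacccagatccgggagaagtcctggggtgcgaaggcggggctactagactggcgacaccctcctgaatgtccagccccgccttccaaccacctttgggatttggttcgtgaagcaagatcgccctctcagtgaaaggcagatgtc
Itga4: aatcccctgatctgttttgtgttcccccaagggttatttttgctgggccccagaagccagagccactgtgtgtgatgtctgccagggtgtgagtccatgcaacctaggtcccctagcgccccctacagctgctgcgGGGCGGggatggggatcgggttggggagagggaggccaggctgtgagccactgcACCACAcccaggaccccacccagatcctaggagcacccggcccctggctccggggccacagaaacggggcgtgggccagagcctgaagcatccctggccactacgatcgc
Itga5: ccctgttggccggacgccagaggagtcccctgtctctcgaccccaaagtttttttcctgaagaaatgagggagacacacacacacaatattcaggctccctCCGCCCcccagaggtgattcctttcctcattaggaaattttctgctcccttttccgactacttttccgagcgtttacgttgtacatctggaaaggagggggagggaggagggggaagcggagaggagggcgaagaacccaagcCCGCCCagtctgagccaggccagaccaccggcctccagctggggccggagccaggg
The Itga4 window held 1 Runx core and 1 GC box, the Itga5 window held 2 GC boxes, and the Itga1 window held 0 matches to any of the 3 motifs. Of 32851 promoters of this length, 16.8% held the Runx core, 35.7% the GC box and 14.9% the Ets core. A match is a description of the letters only.

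In total tumour Treg, the collagen receptor chain Itga1 and the fibronectin receptor chain Itga5 were higher than in spleen Treg, and Itga4 and the laminin receptor chain Itga6 were lower. None of the 4 β chains and not Itgal passed the test. Thus limma called 4 of 9 tested members (adjusted p below 0.05), of which 2 were higher and 2 lower, where 43.0% of all 15524 features were called (20.7% higher and 22.4% lower). The median difference of the tested members was -0.19, and that of all features was -0.069. The members' share called was close to this background. The same counts were obtained without spleen replicate 2. The 3 total tumour and 3 spleen arrays did not overlap for Itga1, Itga4, Itga5, Itga6, Itgal and Itgb2, as was so for 66.5% of all features.

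**Figure D1:**
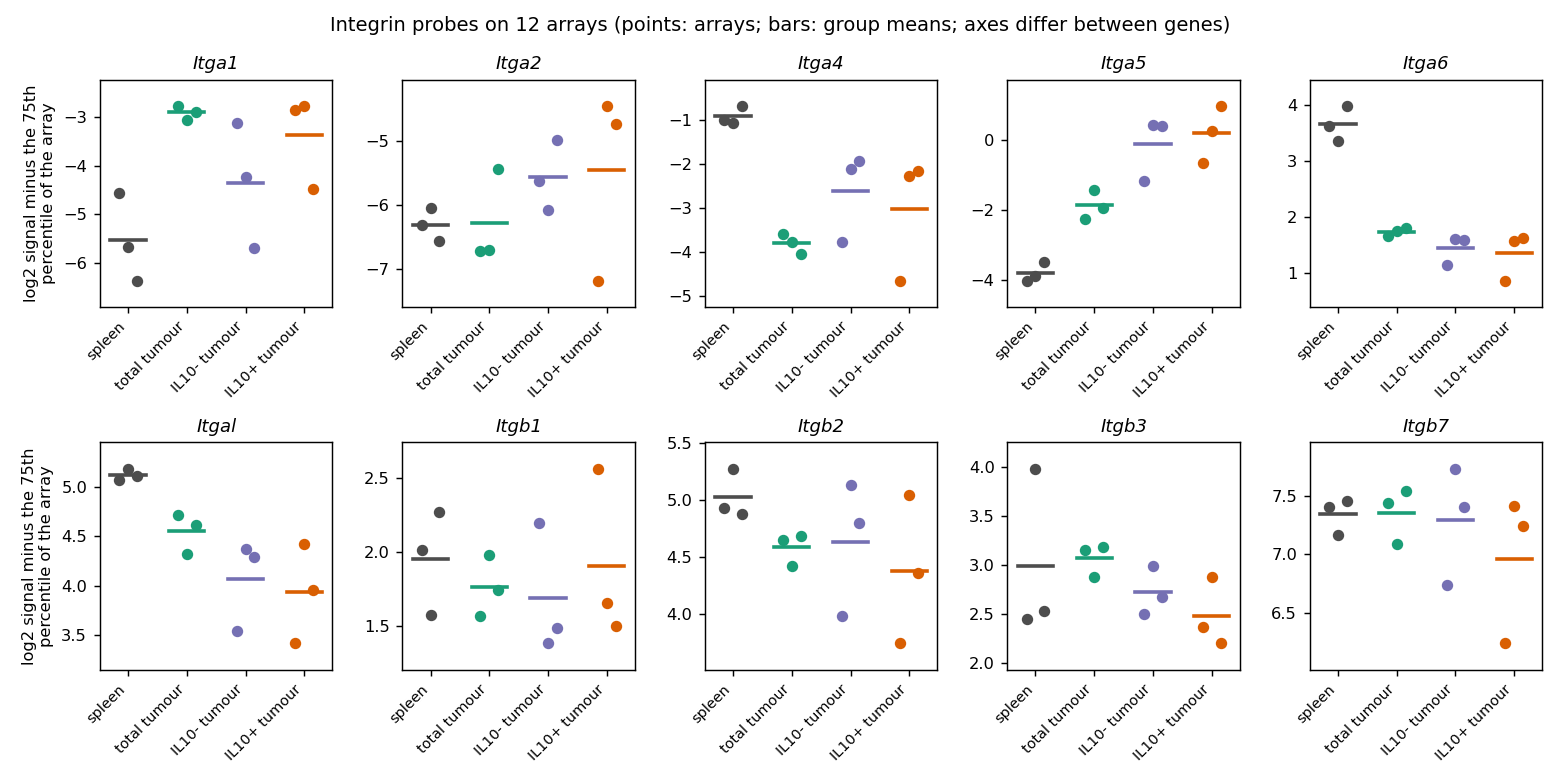
Level of each integrin probe (log2 signal minus the 75th percentile of the array) in the 4 groups, with 1 point per array and a bar at the group mean. Itga6 lies between 3.35 and 3.98 in spleen and at or below 1.81 in every tumour array, whereas Itgb7 overlaps between all groups.

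Itga6 pairs with β1 or β4 to bind laminin. Its levels were 3.63, 3.35 and 3.98 in spleen Treg and 1.66, 1.75 and 1.81 in total tumour Treg. Every tumour array lay below every spleen array. Total tumour Treg were lower by 1.91 ± 0.24 (SE, n = 3 per group, limma adjusted p = 0.000216), a 3.77-fold difference. The difference was -2.06 without spleen replicate 2 (limma adjusted p = 0.000444). IL10- Treg had levels of 1.14, 1.61 and 1.59, and IL10+ Treg had 0.86, 1.58 and 1.62. These fractions lay below spleen by 2.21 (IL10-, limma adjusted p = 7.26e-05) and by 2.30 (IL10+, limma adjusted p = 4.89e-05). They were -2.36 and -2.45 without spleen replicate 2, both called. The other tested Itga6 probe gave -2.05 between total tumour and spleen (limma adjusted p = 8.14e-05). On the slide that held total tumour replicate 3 with all spleen arrays, the difference was -1.85.

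Itga4 pairs with β1 or β7, and its dimers bind VCAM-1, MAdCAM-1 and fibronectin. Its levels were -1.02, -1.08 and -0.69 in spleen Treg and -3.59, -3.76 and -4.05 in total tumour Treg, with no overlap. The difference was -2.87 ± 0.65 (SE, n = 3 per group, limma adjusted p = 0.00587), a 7.32-fold lower signal in total tumour Treg. The IL10- arrays were at -3.78, -2.11 and -1.95, and the IL10+ arrays were at -4.65, -2.27 and -2.16. Replicate 1 was the lowest array in each of these fractions. IL10+ Treg were lower than spleen by 2.10 (limma adjusted p = 0.0218), and the IL10- difference of -1.68 did not pass (limma adjusted p = 0.0553), though it passed in 10 of 24 alternatives. Of the 4 other tested probes, 3 were called lower in IL10- than in spleen Treg, by 1.45, 3.01 and 2.82 (limma adjusted p = 0.0412, 0.00445 and 0.000204). The IL10+ call was lost with normexp background correction (-0.40, limma adjusted p = 0.663), with only the 6 arrays compared (limma adjusted p = 0.0548) and without spleen replicate 3 (-1.98, limma adjusted p = 0.0623). It was kept with slide as a fixed block (-4.09) and without IL10+ replicate 1 (-1.28). Without spleen replicate 2 the IL10+ difference was -2.17 and called, and that of IL10- was -1.76 and not called (limma adjusted p = 0.0455 and 0.0950). All 4 other tested Itga4 probes were called lower in total tumour than in spleen Treg, with differences from -2.67 to -3.93. Of these probes, 1 was not well above background in total tumour Treg, where it was at least 2.99-fold lower. The brightest probe differed by -2.95 between total tumour and spleen without spleen replicate 2 and by -3.12 on the shared slide. With normexp it was -1.07 and no longer passed (limma adjusted p = 0.455).

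Itga5 pairs with β1 as the classical fibronectin receptor. Its levels were -4.01, -3.86 and -3.47 in spleen Treg, where 2 of 3 arrays were well above background. Total tumour arrays were at -2.24, -1.41 and -1.92, IL10- arrays at -1.18, 0.42 and 0.41, and IL10+ arrays at -0.66, 0.27 and 0.97. Spleen was lowest, total tumour came next, and the fractions were highest and overlapped each other. Total tumour exceeded spleen by 1.92 ± 0.50 (SE, n = 3 per group, limma adjusted p = 0.0114), or 3.79-fold. IL10+ Treg exceeded spleen by 3.97 (limma adjusted p = 0.000138) and IL10- Treg by 3.67 (limma adjusted p = 0.00025). Both calls were lost with slide as a fixed block (3.02 and 2.63, limma adjusted p = 0.0794 and 0.185). With normexp the differences were 1.94 and 2.06, and both were called. The fractions lay above total tumour by 2.05 (IL10+, limma adjusted p = 0.110) and 1.74 (IL10-, limma adjusted p = 0.151), differences that did not pass. The arrays do not overlap, as was so for other members given below. On the slide that held IL10+ replicate 1 with total tumour replicates 1 and 2, the IL10+ array was higher by 1.16. For total tumour against spleen the call was lost with normexp (1.05, limma adjusted p = 0.122) and with slide as a fixed block (1.86, limma adjusted p = 0.0907). The differences from spleen without its replicate 2 were 1.88 for total tumour, 3.93 for IL10+ and 3.63 for IL10- Treg, all called.

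Itga1 pairs with β1 to bind collagen and laminin and is found on tissue-resident T cells. Its probe was dim, well above background on 3 total tumour, 2 IL10+, 1 IL10- and 0 spleen arrays. The levels were -2.77, -3.06 and -2.89 in total tumour Treg and -4.56, -5.67 and -6.36 in spleen Treg. The probe thus passed the filter through tumour arrays alone. Total tumour was at least 2.29-fold higher than spleen. For this bound, spleen was given the higher of its own signal and the lowest signal well above background on each array. The fitted difference was 2.62 (limma adjusted p = 0.0119). In this paragraph adjusted p-values belong to fitted differences, which use spleen values not well above background, and not to the bounds. The IL10+ arrays were at -2.85, -2.78 and -4.48, and their fitted difference from spleen was 2.16 (limma adjusted p = 0.0237). Their mean lay 1.66-fold above the spleen bound. That value is not a strict lower bound, since not all IL10+ arrays were well above background. The IL10- arrays spread from -5.69 to -3.12, and their difference from spleen did not pass (1.18, limma adjusted p = 0.178). It passed with the mean of the probes (1.58, limma adjusted p = 0.00229) and without IL10- replicate 3 (1.85, limma adjusted p = 0.0410), and was 1.11 without spleen replicate 2. A second Itga1 probe was also not well above background on any spleen array, and was called higher in total tumour (at least 1.32-fold, limma adjusted p = 0.00119), IL10+ (at least 1.54-fold, limma adjusted p = 0.000502) and IL10- Treg (limma adjusted p = 0.00384). For IL10- Treg neither probe gave a bound above 1. For total tumour against spleen the call was lost with normexp (0.68, limma adjusted p = 0.613) and with slide as a fixed block (2.64, limma adjusted p = 0.102). It was kept without spleen replicate 2 (at least 2.54-fold, limma adjusted p = 0.0363). The IL10+ call was lost without spleen replicate 2 (2.09, limma adjusted p = 0.0619), and in other settings given in the closing section.

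**Figure D2:**
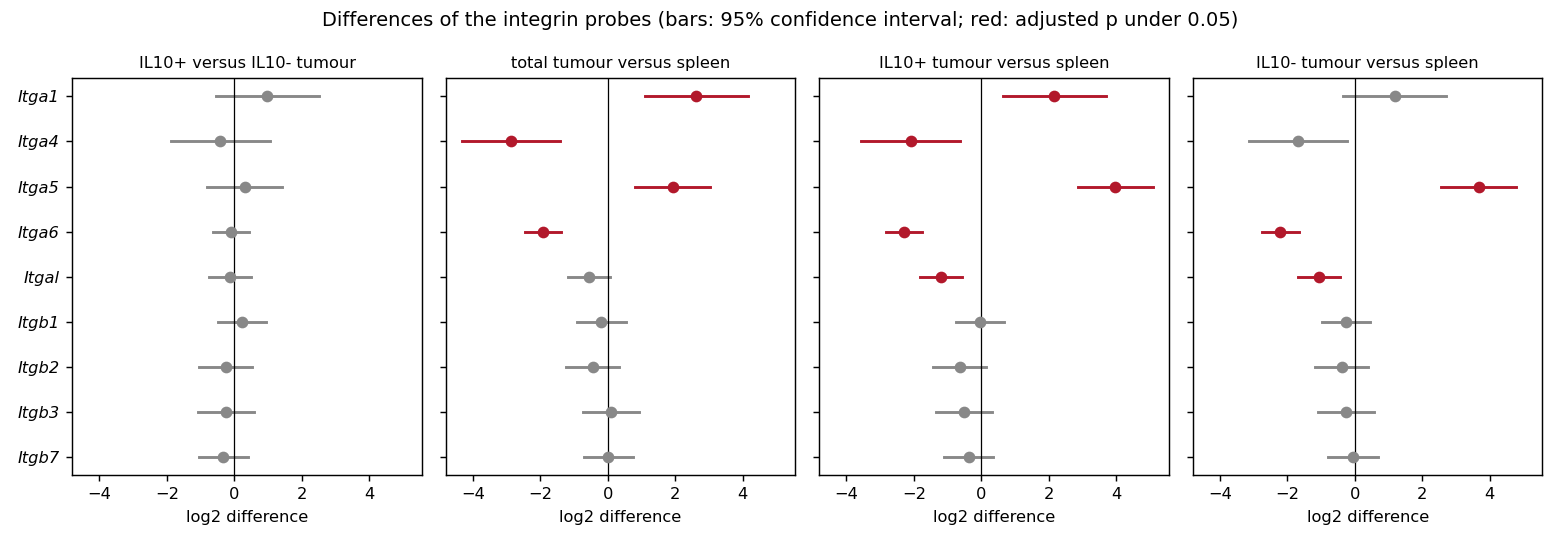
Difference of each tested integrin in 4 comparisons on the log2 scale, with 95% confidence intervals, and red where limma's adjusted p was under 0.05. Itga5 was 3.97 above spleen in IL10+ Treg, and no member was red between the IL10 fractions.

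Itgal and Itgb2 encode the chains of LFA-1, which T cells use to adhere to antigen-presenting cells and vessel walls. Itgal levels were 5.07, 5.18 and 5.11 in spleen Treg and 4.71, 4.32 and 4.62 in total tumour Treg. The arrays do not overlap, but the difference of -0.57 ± 0.28 (SE, n = 3 per group) did not pass (limma adjusted p = 0.128). Itgal was lower than spleen by 1.19 in IL10+ Treg (limma adjusted p = 0.00549) and by 1.05 in IL10- Treg (limma adjusted p = 0.0110). Both calls were lost with slide as a fixed block (-1.60 and -1.95, limma adjusted p = 0.0755 and 0.0912). With normexp the IL10+ difference was -2.38 and called, and that of IL10- was -1.09 and not called (limma adjusted p = 0.00227 and 0.119). Leaving out spleen replicate 2 gave -1.16 and -1.02, both called, and -0.54 for total tumour, which was not. The other Itgal probe gave -0.67 and -0.24 for these fractions and was not called (limma adjusted p = 0.244 and 0.680), so the 2 probes disagree on the call. With the mean of both probes the differences were -0.93 and -0.65, and neither passed (limma adjusted p = 0.0572 and 0.171). Itgb2 averaged 5.03 ± 0.22 in spleen and 4.58 ± 0.15 in total tumour Treg (SD, n = 3), a difference of -0.44 with a 95% interval from -1.23 to 0.34 (limma adjusted p = 0.341). It was -0.32 without spleen replicate 2.

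Itgb1 and Itgb7 are the partners of the α4 chain, and Itgb1 also of α1, α5 and α6. Itgb1 averaged 1.95 in spleen, 1.77 in total tumour, 1.69 in IL10- and 1.91 in IL10+ Treg. Its difference between total tumour and spleen was -0.19, with an interval from -0.90 to 0.53 (limma adjusted p = 0.674), and it was -0.38 without spleen replicate 2. Itgb7 averaged 7.34 ± 0.15 in spleen and 7.35 ± 0.24 in total tumour Treg (SD, n = 3). The difference was 0.014, with an interval from -0.72 to 0.75 (limma adjusted p = 0.978). Its sign changed under other scalings and without spleen replicate 2, where it was -0.074 (limma adjusted p = 0.905). Itgb3 pairs with αv or αIIb, and its brightest probe, drawn from a cDNA clone, averaged 2.99 in spleen and 3.07 in total tumour Treg. Its spleen arrays were at 2.45, 3.98 and 2.53, with the library labelled spleen replicate 2 the highest. The difference was 0.086 (limma adjusted p = 0.876), and 0.58 without that library (limma adjusted p = 0.0784). The dimmer RefSeq probe of Itgb3 gave 0.68 (limma adjusted p = 0.299).

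**Figure D3:**
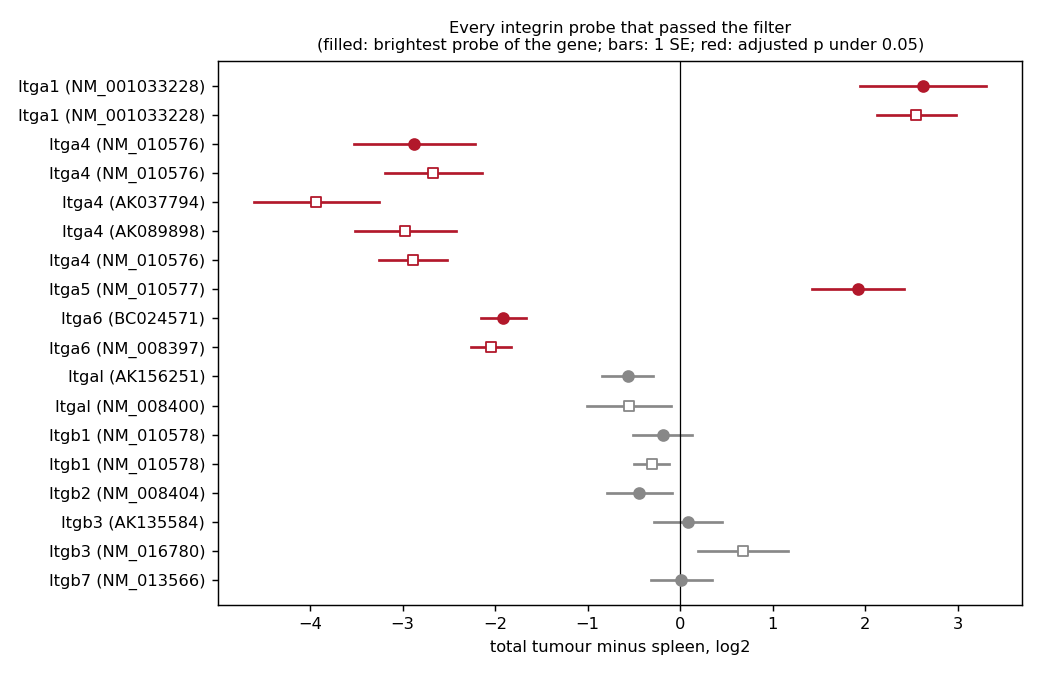
Difference between total tumour and spleen Treg for each integrin probe that passed the filter, with bars of 1 SE, filled for the brightest probe and red where limma's adjusted p was under 0.05. All 5 Itga4 probes lie between -3.93 and -2.67, and the 2 Itgal probes lie at -0.57 and -0.55.

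Against spleen, 5 of 9 tested members were called in IL10+ Treg (2 higher and 3 lower, with 51.8% of all features called, 23.2% higher and 28.6% lower) and 3 in IL10- Treg (1 higher and 2 lower, with 49.3% called, 23.3% higher and 26.0% lower). Of the features called, 44.8% were higher in IL10+ and 47.2% in IL10- Treg, and 30.8% and 32.0% with median scaling. Without spleen replicate 2 the members called were 4 and 3. With normexp, 5 were called in IL10+ Treg, 1 higher and 4 lower. Itga5, Itga6 and Itgal were the only α chains called there, so the other lower calls were β chains. Without IL10+ replicate 2 the counts were the same, and a β chain was called lower beside Itga4, Itga6 and Itgal. Which β chains passed is not given. The comparisons of the fractions and of total tumour with spleen share the spleen arrays, and no slide held a fraction together with spleen. Against total tumour, 0 of 9 members were called by limma in IL10+ Treg (0.187% of features called) and 0 in IL10- Treg (0.0515% called). Itga5 alone had an unadjusted p under 0.05 in each, as had 16.7% and 15.5% of features. The arrays did not overlap for Itga5, Itga6 and Itgb3 in IL10+, and for Itga1, Itga5 and Itga6 in IL10- Treg. The share of all features without overlap is not given for these 2 comparisons. The lack of overlap is therefore not read as particular to these members.

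Between IL10+ and IL10- Treg, 0 of 9 tested members were called by limma, and 0 had an unadjusted p under 0.05. Of all features, 0.0515% were called and 4.68% had an unadjusted p under 0.05. Il10 itself was also not called, though its arrays did not overlap between the fractions. The lack of calls therefore does not show equal integrin levels. The groups overlapped for all 9 members, and did not overlap for 7.59% of features. The largest difference was that of Itga1, at 0.98 with an interval from -0.55 to 2.51, and the smallest that of Itga6, at -0.093 with an interval from -0.63 to 0.45. Itga5 differed by 0.31 and Itga4 by -0.41, Itgal by -0.14 and Itgb7 by -0.33 (limma adjusted p = 0.9997 for each). In both fractions replicate 1 had the lowest level of Itga4, Itga5, Itga6, Itgal, Itgb2 and Itgb7 and the highest of Itgb1. Cd3e, a chain of the T cell receptor complex, was also lowest in these arrays, at 1.97 in IL10- and 1.64 in IL10+ Treg, against 4.70 to 5.78 in the other arrays of the fractions. The part of this in the integrin values was not tested. On the slide that held IL10+ replicate 2 with all IL10- arrays, the Itga4 difference was 0.34 and that of Itgb2 0.41. There Itga6 differed by 0.13, Itgal by 0.35, Itgb1 by -0.033, Itgb3 by 0.15 and Itgb7 by 0.12. All of these had the opposite sign to the full comparison. Itga1 (1.57) and Itga5 (0.38) kept theirs.

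Among the other integrin subunits, 14 of 16 were tested, and 9 were called higher and 1 lower in total tumour than in spleen Treg, where 20.7% of all features were called higher and 22.4% lower. The median of these differences was 1.99. Itga8, Itga10 and Itga11 were well above background on 0 spleen arrays. They passed the filter through tumour arrays alone, which favours a higher value there. Itgb4, the other partner of α6, was at 0.39, 1.40 and 1.36 in total tumour and -3.38, -4.00 and -3.18 in spleen Treg, a difference of 4.57 ± 0.41 (SE, limma adjusted p = 2.94e-05). It was 4.33 without spleen replicate 2 and 2.75 with normexp, and called in both. Itgae (CD103), which binds E-cadherin with β7, differed by 3.02 (limma adjusted p = 0.0491), and by 1.36 without spleen replicate 2, whose level was -2.70 against 2.29 and 2.21. Itgb8, which binds latent TGF-β with αv, differed by 2.75, and by 1.62 without that library. Its call was lost in 3 alternatives, and with normexp its difference was 1.70 and called. Itga9 was lower, by 1.04 (limma adjusted p = 0.0309), a call lost in 13 of 24 alternatives, as was that of Itgae in 15. Without spleen replicate 2, 8 of these genes were called higher and 0 lower, and Itga9 was at -0.96 (limma adjusted p = 0.0858). Between the IL10 fractions 0 of these genes were called by limma, where 0.0515% of features were called. The part of other cells in the values of this list was not tested.

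**Figure D4:**
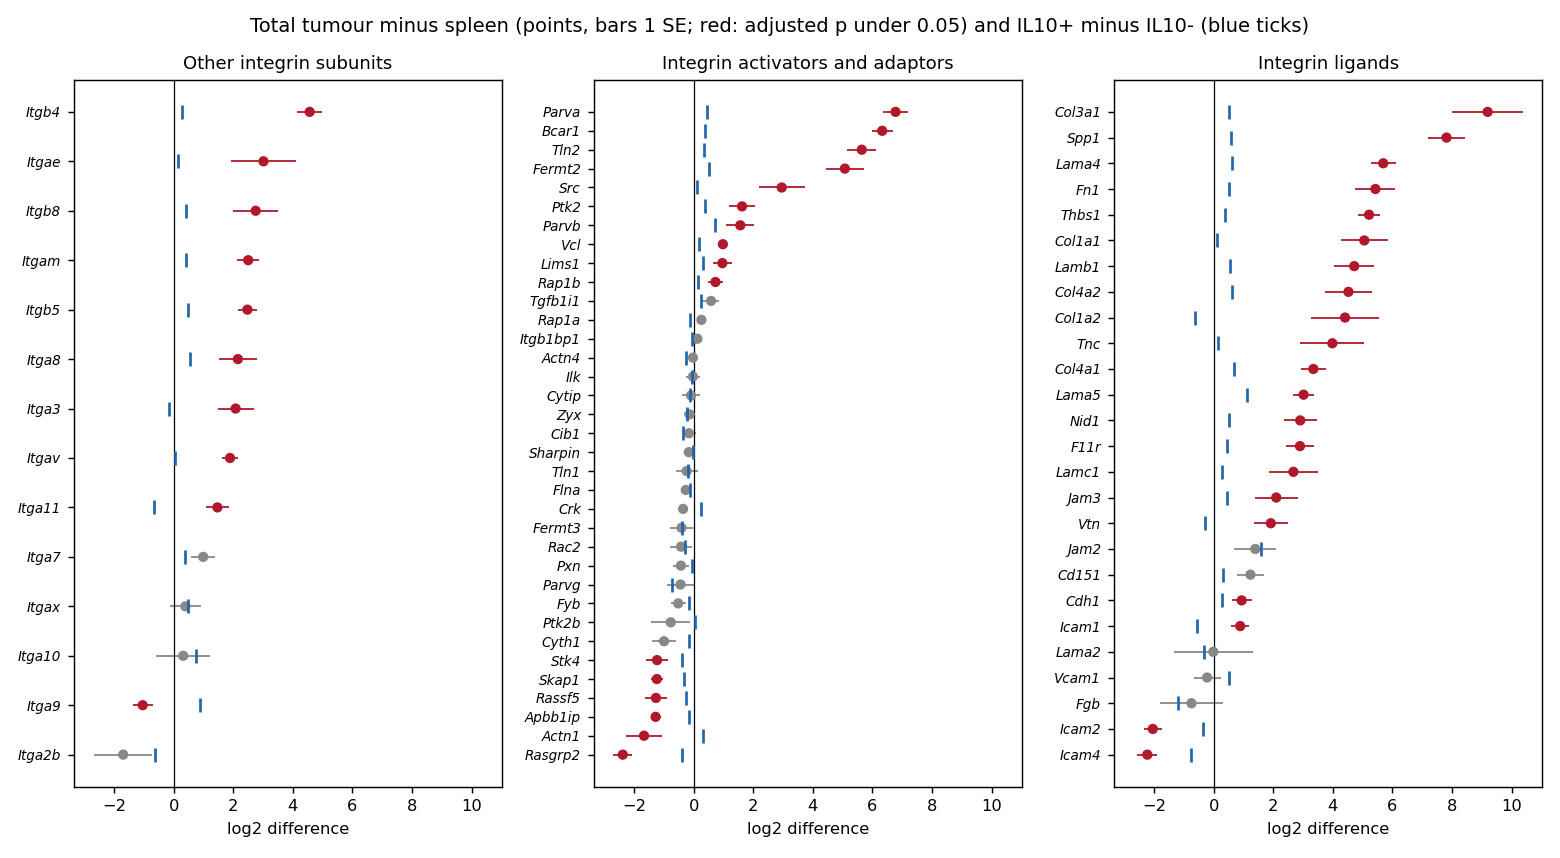
Difference between total tumour and spleen Treg (points, with bars of 1 SE, red where limma's adjusted p was under 0.05) and between IL10+ and IL10- Treg (blue ticks) for tested genes of 3 lists. Most ligands lie to the right of 0, up to a fitted 9.19 for Col3a1, which was well above background on 1 of 3 spleen arrays, and 0 of the ticks belong to a gene called between the IL10 fractions.

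Of 36 integrin activators and adaptors, 35 were tested, 10 were called higher and 6 lower in total tumour than in spleen Treg, and the median difference was -0.16. Over all features 20.7% were called higher and 22.4% lower, so the share called in this list was close to the background. Parva, Bcar1 and Tln2 were not well above background in spleen and were at least 23.1-fold, 29.6-fold and 10.5-fold higher in total tumour Treg, or 25.7-fold, 33.0-fold and 11.7-fold without spleen replicate 2. With normexp their differences were 2.93, 2.94 and 1.99, all called. These encode α-parvin, the p130Cas scaffold and the second talin. They passed the filter through tumour arrays alone, and the part of other cells in their values was not tested. Rasgrp2, the exchange factor that activates Rap1, was at 1.501, 1.29 and 1.39 in total tumour and 3.45, 4.45 and 3.41 in spleen Treg, lower by 2.37 (limma adjusted p = 0.000326). Apbb1ip, the Rap1 effector RIAM, was lower by 1.27 (limma adjusted p = 0.000250), and Actn1 by 1.66 (limma adjusted p = 0.0460), a call lost in 14 of 24 alternatives. Without spleen replicate 2, 10 genes were called higher and 3 lower. The differences of Rasgrp2 and Apbb1ip were then -2.03 and -1.22 and called, and that of Actn1 was -1.08 and not called (limma adjusted p = 0.160). Tln1 and Fermt3, the talin and kindlin of blood cells, differed by -0.23 and -0.41 and did not pass.

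Of 30 integrin ligands, 26 were tested, 19 were called higher and 2 lower in total tumour than in spleen Treg, with a median difference of 2.90, where 20.7% of all features were called higher and 22.4% lower. These counts were 16 and 2 without spleen replicate 2. Of the 30 ligands, 24 were well above background on any total tumour array and 15 on any spleen array. Tested ligands that were well above background on no spleen array passed the filter through tumour arrays alone. For these genes the filter favoured a higher value in tumour, so the count and median are not a test of the ligands. Col3a1, a fibrillar collagen, and Spp1, osteopontin, were well above background on 1 of 3 spleen arrays, replicate 2. Against the other spleen arrays they were at least 715-fold and 121-fold higher in total tumour Treg. The laminin chain Lama4 was at least 10.9-fold higher, or 12.2-fold without spleen replicate 2. Icam4 and Icam2, ligands of β2 integrins, were lower by 2.22 and 2.04, and by 2.13 and 1.88 without that library. With normexp the Icam4 call was lost (-0.86, limma adjusted p = 0.494). Macrophage and fibroblast markers moved with these genes, where the same shares of all features were called. Of 12 macrophage and monocyte markers, 10 were called higher in total tumour, and their summed level, in multiples of the array's 75th percentile, was 329 to 634 in total tumour and 41.9 to 101 in spleen Treg. Of 8 fibroblast markers, 6 were called higher. Their brightest gene was Thy1, which mouse T cells also express, and without it the other 7 summed to 67.3 to 95.9 in total tumour and 0.129 to 0.606 in spleen. Lum, Pdgfra and Pdgfrb were not well above background in spleen. B cell markers moved the opposite way. All 7 B cell markers were called lower, with sums of 2.48 to 3.27 in total tumour and 43.0 to 80.8 in spleen, and Cd79a, Cr2, Blk and Pax5 were not well above background in total tumour. Platelet and erythroid markers summed to 6.03 to 10.8 in total tumour and to 303 to 755 in spleen. The brightest gene of this list was the haemoglobin gene Hba-a1, and the sum does not tell platelet from erythroid genes. Of 4 tested genes, 2 were called lower, and 1 was higher in total tumour but not called. The part of these cells in the values of the members, the other subunits, the activators and adaptors, and the ligands was not tested.

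The named features whose levels were most like a member's over the 12 arrays were ranked by Pearson's r among 12667 features. For Itga6 these were Ephb6 (r = 0.992) and Mcl1 (r = 0.990), for Itgal Ptprc (r = 0.990) and Dock10 (r = 0.988), and for Itga5 Lmf2 (r = 0.983) and Lacc1 (r = 0.979). Itga4 was most like Slc9a8 (r = 0.978) and H6pd (r = 0.976), and Itgb2 most like Myd88 (r = 0.978) and Lck (r = 0.971). Itgb7 followed Rnaset2b (r = 0.971) and Ptpn7 (r = 0.969), Itga1 followed Lefty1 (r = 0.926) and P2ry12 (r = 0.891), and Itgb1 followed Qser1 (r = 0.907) and Cpt2 (r = 0.898). These values describe arrays that share groups, slides and the makeup of the sorted cells.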

How the data were processed

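RNA of 12 sorted Treg samples was hybridised to 1-colour Agilent mouse arrays on 4 slides scanned on 2 days. Labels name biotin-labelled cRNA and the file headers a single-channel scan. Which describes the labelling was not settled. Per the file headers, the deposited spot intensity was made with Feature Extraction 9.5.3.1, and probes were annotated on mm8. The authors' deposited value table, used as an alternative, follows log10 of the processed intensity (Pearson r from 0.995 to 0.9999 per array), and no source used here gives its normalization. Column medians are 1.33.

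Control spots and 58 to 183 outlier spots per array were left out, and spots of a probe were averaged on the log2 scale. The level was the log2 of the deposited processed intensity minus the 75th percentile of the array. Probes were named through the RefSeq table, and each gene was read from its brightest probe. Features well above background on at least 3 arrays (15524) were fitted over all 12 arrays with limma 3.58.1 in R 4.3.3 (group as the only term, two-sided). The Benjamini-Hochberg adjustment of p-values ran over all features of each of 6 comparisons, and called under 0.05. Steps were tested on simulated data. The number of arrays limits the precision.

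Named were the 10 members, the genes of the sorts, the 3 largest rises and falls of each pathway list among called genes, the 2 most similar features of each member (those of Itgb3 are not reported here), and markers of other cells. Tln1, Fermt3, Ctla4 and marker genes beyond the rule were chosen after their values were seen, as were spleen replicate 2 as the library to give results without and the fibroblast sum without Thy1. The members and lists were chosen with earlier results of these data known. Alternatives were 12 settings of background, scaling, filter, block, probe and test, and leaving out each of the 12 arrays. Figures used matplotlib 3.10.9.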

Additional observations from a re-analysis of the deposited data

How the results depend on the processing

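Across 24 alternatives, 720 differences of members were recomputed. Of these, 653 kept direction and side of the threshold, 24 lost the call, 14 gained it and 29 changed sign. Not among them were β chains between fractions and spleen, and members except Itga5 between fractions and total tumour. No difference that changed sign had passed the test. The causes of the changes were not tested. Normexp used an offset of 50. Dim probes such as Itga1 are limited by signal over background. A slide never held an IL10 fraction with spleen, so the fixed slide block reaches those differences only through other groups.

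Of the 9 tested members, those called between total tumour and spleen fell from 4 to 1 with normexp and to 2 with the fixed slide block. With that block they were 2 for IL10+ and 1 for IL10- against spleen. Without single arrays the count was 3 to 5 for IL10+ against spleen, 3 without spleen replicate 3, and 0 to 1 for IL10+ against total tumour, where Itga5 passed without IL10+ replicate 1 (2.48, limma adjusted p = 0.0389). All features called between total tumour and spleen were 6681, and 1937 with normexp, 3474 with the fixed slide block and 3873 with median scaling. Those for IL10+ against spleen were 8039, and 5291 with normexp and 2511 with the fixed slide block, and those for IL10- 7655, 2343 and 1229. Over all alternatives the features called were 0 to 18 between the fractions. Against total tumour they were 1 to 524 for IL10+ and 0 to 185 for IL10-, both highest without IL10+ replicate 1. Median scaling moved the median of all features to -0.53 for IL10+ and -0.45 for IL10- against spleen, from -0.11 and -0.041.

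Between the IL10 fractions, with no call in any setting, normexp gave 0.51 for Itga4, -0.12 for Itga5 and -0.48 for Itgb1. The fixed slide block gave 0.34 for Itga4, 0.13 for Itga6, 0.35 for Itgal, -0.033 for Itgb1, 0.41 for Itgb2, 0.15 for Itgb3 and 0.12 for Itgb7. Leaving out arrays gave -0.997 to 0.40 for Itga4, -0.23 to 0.74 for Itga5, -0.24 to 0.15 for Itga6, -0.40 to 0.12 for Itgal, -0.11 to 0.47 for Itgb1, -0.58 to 0.067 for Itgb2 and -0.60 to 0.034 for Itgb7. Between total tumour and spleen, normexp gave -0.054 for Itgb3, -0.33 for Itgb7 and 0.068 for Itga9. Itgb7 was -0.069 with quantile normalization, -0.00038 with median scaling and -0.32 from the value table. Leaving out arrays gave -0.079 to 0.15 for Itgb7 and -0.18 to 0.58 for Itgb3.

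For IL10+ against spleen, Itga1 lost its call with quantile normalization (1.48, limma adjusted p = 0.194), median scaling (1.74, limma adjusted p = 0.0581), the value table (1.53, limma adjusted p = 0.180), normexp (1.45, limma adjusted p = 0.0815), the fixed slide block, and without IL10+ replicates 1 or 2 or spleen replicates 2 or 3. Itgal passed between total tumour and spleen with only these 6 arrays fitted (-0.57, limma adjusted p = 0.0158). The list of other subunits had 5 called genes with normexp, the fixed slide block or without total tumour replicate 3. Activators and adaptors had 16 called genes, 8 with the fixed slide block and 10 without total tumour replicate 2.

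Same-numbered arrays of the IL10 fractions had deviations correlated at 0.413, 0.430 and -0.237. Differently numbered arrays ranged from -0.571 to 0.301, so 0.413 and 0.430 were the highest values. Whether the numbers pair samples was not settled, and the main test did not pair them. With the replicate block, Itga4 passed for IL10- against spleen (-1.68, limma adjusted p = 0.0364), and no other member changed its call.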
